A study of Mus musculus with 6 samples.

Results

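The high mobility group (HMG) chromatin proteins were followed here through 9 mouse genes of 55487 gene identifiers in the count tables: Hmga1, Hmga2, Hmgb1, Hmgb2, Hmgb3, Hmgn1, Hmgn2, Hmgn3 and Hmgn5. They were taken by symbol and matched to Ensembl identifiers on the mouse build GRCm38. The set was chosen on genotype differences seen in these same 6 libraries, so the genotype values of the 9 genes are a description and carry no test. RNA was sequenced from cultured primary hepatocytes, the parenchymal cells of the liver, taken from mice on the mixed B6CBAF1 background. WT mice had no transgene, and their heterozygous Alb/MDA-9 littermates carried the human scaffold protein syntenin (MDA-9/SDCBP) with an HA tag at its C-terminal end. The albumin promoter and enhancer drove the transgene, which restricts it largely to hepatocytes. All mice ate regular chow and the cells of both groups were left untreated; the sources used here give no ages. Each group had 3 libraries, numbered 1 to 3, and nothing in the labels says that these were separate animals, so errors and p-values measure the spread between libraries.

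HMG proteins are abundant nonhistone proteins that bind DNA or nucleosomes with little sequence specificity and change how chromatin folds. HMGA proteins grip the minor groove of AT-rich DNA with short AT-hooks, are plentiful in embryonic and dividing cells and are scarce in most adult tissue. HMGB proteins bend DNA with paired HMG boxes, and HMGB1 is also released from injured hepatocytes as a danger signal. HMGN proteins bind the nucleosome core itself and compete with linker histone H1.

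Several of these genes have near-identical copies, and the sequences of the copies bear on how the reads of those genes are counted. Hmga1 (ENSMUSG00000046711, 17:27556497-27563674, plus strand) is spliced, whereas Hmga1b (ENSMUSG00000078249, 11:120762794-120764419, plus strand) is a copy in a single exon that GENCODE annotates as protein coding. Over 1602 aligned bases the transcripts were 99.813% identical. The 3 differences, A736G, A863G and G1325T, all lay in the 3′ UTR (position from 1 at the 5′ end of the Hmga1 transcript, Hmga1 base first). None of the 321 coding bases differed. The third coding exon of Hmga1, 51 bases at chr17:27561461-27561511 on the plus strand of GRCm38, shows why a read can fail to tell them apart, since the whole exon is also present in Hmga1b. Capitals mark the bases that encode the core of the third AT-hook.
Hmga1 coding exon 3: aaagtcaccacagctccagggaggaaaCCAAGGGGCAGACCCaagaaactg

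Promoter sequence was available for 8 of the 9 genes (RefSeq, GRCm38.p6), in 10 windows from 250 bases before to 50 bases after a transcript start. Hmgb2 and Hmgb3 are shown because theirs were the only windows among the 10 with both motifs that are common before cell-cycle genes. These motifs are the CCAAT box and the cell cycle genes homology region (CHR), TTTGAA, both searched on either strand. Capitals mark the matches, and the 250 bases before the start are printed, on the plus strand for both genes, from chr8:57511593-57511842 for Hmgb2 and chrX:71555667-71555916 for Hmgb3.
Hmgb2: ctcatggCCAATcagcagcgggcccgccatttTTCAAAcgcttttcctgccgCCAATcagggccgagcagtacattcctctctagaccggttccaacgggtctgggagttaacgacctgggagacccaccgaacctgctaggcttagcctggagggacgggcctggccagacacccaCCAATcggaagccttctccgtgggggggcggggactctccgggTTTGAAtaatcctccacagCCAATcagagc
Hmgb3: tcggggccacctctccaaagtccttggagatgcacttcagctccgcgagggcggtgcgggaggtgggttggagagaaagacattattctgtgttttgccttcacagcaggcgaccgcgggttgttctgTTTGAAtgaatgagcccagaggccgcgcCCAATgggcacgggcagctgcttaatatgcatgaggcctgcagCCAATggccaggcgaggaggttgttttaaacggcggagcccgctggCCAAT

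The Hmgb2 window held 4 CCAAT boxes and 2 CHR matches, and the Hmgb3 window held 3 CCAAT boxes and 1 CHR match. Over all 32851 promoter windows of this length, 37.4% held a CCAAT box, 17.9% a CHR match and 6.95% both. Neither window of Hmga1 held either motif, nor did the window of Hmga2 or the second window of Hmgb1. Hmgn1 and Hmgn5 each had 2 CCAAT boxes, the first Hmgb1 window had 3 and Hmgn2 had 1, all without a CHR match. None of the 10 windows held an E2F site (TTTCCCGC, TTTCGCGC, TTTGCCGC or TTTGGCGC on either strand), against 2.26% of all windows. A match is a string of letters only and does not show that a factor binds.

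Each library held 16403918 to 19046739 reads on the annotated strand of genes. Counts below are raw reads, and levels are CPM (read counts scaled to library size with edgeR's TMM factors); 3 reads correspond to 0.158 to 0.183 CPM before TMM scaling. Of 13296 genes tested between genotypes, 1920 passed an adjusted p of 0.05 (14.4%, edgeR quasi-likelihood test, Benjamini-Hochberg), 7.35% higher and 7.09% lower in Alb/MDA-9. The split of 977 higher and 943 lower genes depended on scaling, with 722 and 1087 by upper-quartile factors and 525 and 1622 by library totals alone. All 9 HMG genes passed the low-count filter, and 2 of them passed the same threshold, both lower, a count from which nothing is read because this contrast chose the genes. Libraries of the 2 genotypes did not overlap for Hmga1, Hmgb2 and Hmgn3, and for 33.6% of all tested genes. The median log2 change of the 9 genes was -0.04, and that of all tested genes was -0.0015.

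**Figure D1:**
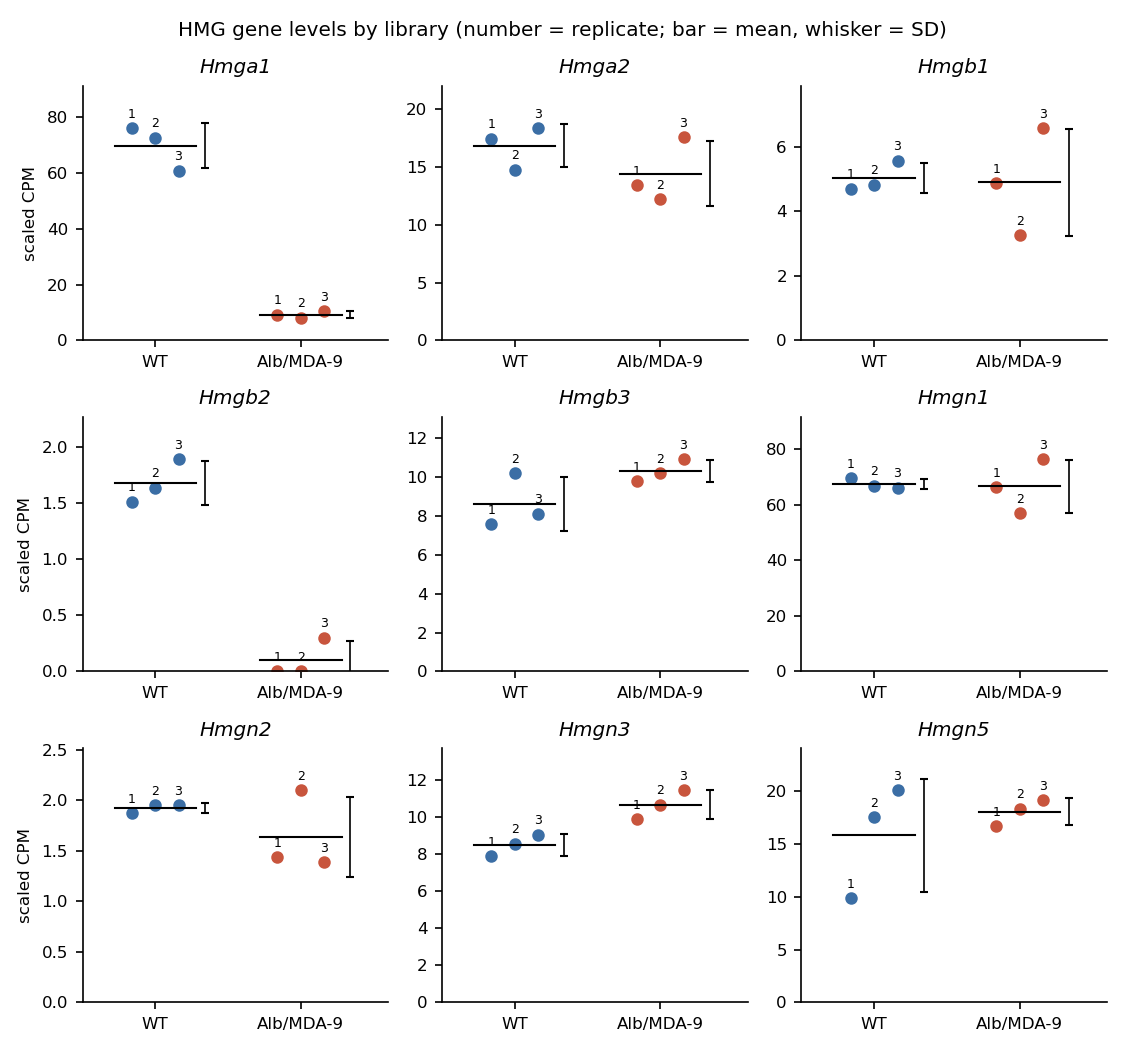
Scaled CPM of the 9 HMG genes in each library, with WT in blue and Alb/MDA-9 in red. Numbers are replicate numbers, horizontal bars are group means and whiskers are SD (n = 3, drawn no lower than 0). The genotypes are far apart for Hmga1 and Hmgb2, narrowly apart for Hmgn3 and overlapping for the other 6.

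In the HMGA family, Hmga1 was much lower in Alb/MDA-9 and Hmga2 was not clearly different. Hmga1 encodes AT-hook proteins made as splice forms, architectural factors that help transcription factors assemble on promoters. WT 1 to 3 gave 1504, 1417 and 1028 reads, whereas Alb/MDA-9 1 to 3 gave 166, 139 and 175. The levels were 75.9, 72.6 and 60.8 CPM against 9.17, 8.09 and 10.5 CPM. Every Alb/MDA-9 library lay far under the lowest WT library, and the spread within each genotype was small beside the gap. The group means were 69.8 ± 7.94 and 9.27 ± 1.22 CPM (SD, n = 3), 7.53-fold lower in Alb/MDA-9, with a log2 change of -2.91 (SE 0.12).

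Hmga2 (ENSMUSG00000056758, 10:120361275-120476469, minus strand) encodes the second AT-hook protein, a fetal form that returns in many tumours. Its WT levels were 17.5, 14.8 and 18.3 CPM, and its Alb/MDA-9 levels 13.4, 12.2 and 17.6 CPM. Alb/MDA-9 3 fell inside the WT range while the other 2 Alb/MDA-9 libraries lay below it. The log2 change was -0.23 (SE 0.15). No near-identical copy of Hmga2 was found, and 95.1% of its 50-base words occurred in no other transcript.

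The copy Hmga1b did not follow Hmga1. It gave 576, 470 and 404 WT reads and 695, 484 and 582 Alb/MDA-9 reads, that is 29.1, 24.1 and 23.9 CPM against 38.4, 28.2 and 35.0 CPM. The groups overlapped, since WT 1 lay above Alb/MDA-9 2. Means were 25.7 ± 2.94 and 33.9 ± 5.21 CPM (SD, n = 3), with a log2 difference of 0.40 (SE 0.12; adjusted p = 0.0463 in edgeR). Over 13 alternative settings its adjusted p ran from 0.00405 to 0.171. The call was lost without WT 2 (0.171), WT 3 (0.152), Alb/MDA-9 1 (0.146) or Alb/MDA-9 3 (0.0571).

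Of the reads counted for the pair, the Hmga1 share was 73.1% ± 1.78 for WT but 21.6% ± 2.02 for Alb/MDA-9 (n = 3, ± SD). Summed over the pair the WT level was 105, 96.7 and 84.7 CPM, and the Alb/MDA-9 level 47.6, 36.3 and 45.6 CPM. These sums still did not overlap. With the reads of both loci added, the log2 change was -1.15 (SE 0.11), a 2.21-fold lower mean in place of 7.53-fold. The size of the Hmga1 difference therefore depends on whether the copy is counted with it.

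Only 45.0% of the 50-base words of Hmga1 transcripts, and 11.03% of those of Hmga1b, occurred in no other gene's transcripts. At 100 bases these shares were 59.9% and 21.2%; the sources used here give no read length. The deposited counts hold only reads placed at a single site, so reads that fit both loci equally well are missing from both genes. How many reads with shared words were lost in this way was not tested. Reads placed at several sites were 19.9% to 20.2% of all reads in WT and 18.7% to 19.8% in Alb/MDA-9, and their part in the Hmga1 value was not tested. Placement between the 2 loci can also depend on strain alleles in this mixed background. Which alleles the libraries carried there, and their part in the Hmga1 value and in the shares of the pair, was not tested.

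**Figure D2:**
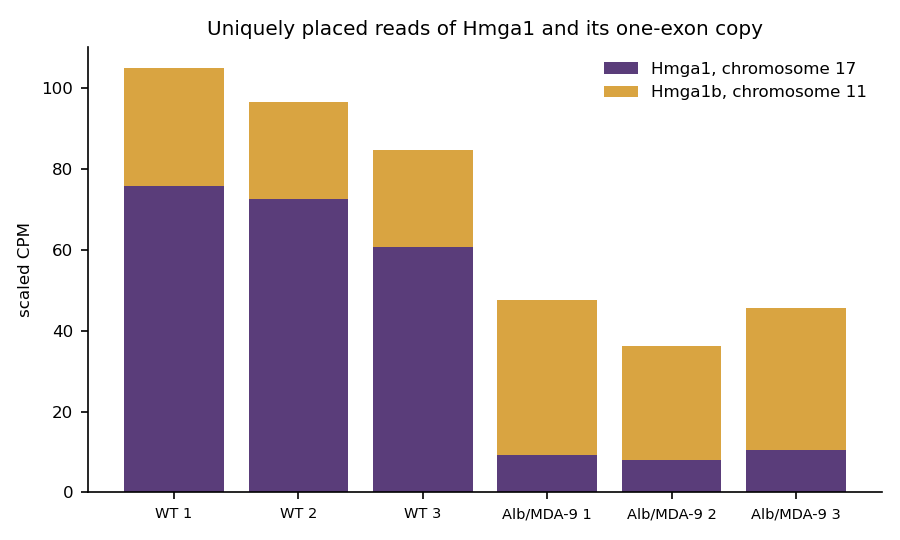
Stacked scaled CPM of Hmga1 (purple) and its one-exon copy Hmga1b (yellow) in each of the 6 libraries. The purple part shrinks from 60.8 to 75.9 CPM in WT to 8.09 to 10.5 CPM in Alb/MDA-9, while the yellow part stays between 23.9 and 38.4 CPM.

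In the HMGB family Hmgb2 was nearly absent from Alb/MDA-9, whereas Hmgb1 and Hmgb3 overlapped between genotypes. Hmgb2 (ENSMUSG00000054717, 8:57511907-57515999, plus strand) encodes an HMG-box protein that is most abundant in proliferating cells and accompanies chromosome condensation. It was counted with 30, 32 and 32 reads over the 3 WT libraries. In Alb/MDA-9 1 and 2 it had 0 reads, and in Alb/MDA-9 3 it had 5 reads. The levels were 1.51, 1.64 and 1.89 CPM against 0, 0 and 0.301 CPM.

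The WT libraries agreed closely and all Alb/MDA-9 reads came from a single library. The ratio of 94 WT reads to 5 Alb/MDA-9 reads, scaled for depth, was 17.4, with a 95% exact binomial interval of 7.18 to 54.7 that covers counting error only. The fitted log2 change was -4.02 (SE 0.70). Without Alb/MDA-9 3 no read was left in that genotype, and Hmgb2 was at least 19.7-fold lower there against a floor of 3 reads over the group. With so few reads the size is imprecise. Of 5 near-identical copies, 4 had no read in any library and the last, Gm4739, had 1.

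Hmgb1 (ENSMUSG00000066551, 5:149046702-149184489, minus strand) gave 93, 94 and 94 WT reads and 88, 56 and 109 Alb/MDA-9 reads. Its levels were 4.70, 4.82 and 5.56 CPM and 4.86, 3.26 and 6.56 CPM. Alb/MDA-9 held both the lowest and the highest library. The log2 change was -0.04 (SE 0.24), and its sign depended on single libraries. It became 0.18 without Alb/MDA-9 2 and 0.040 without WT 3.

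Hmgb1 had 63 near-identical copies (at least 95% identity over at least 200 bases), all in a single exon, of which 27 had no read. Together the copies held 13 to 26 reads per library beside the 56 to 109 of Hmgb1 itself, and adding them gave a log2 change of 0.030 (SE 0.22). Words of 50 bases from Hmgb1 were shared with 132 other genes, leaving 73.9% that were unique. Its low count is therefore a count of the reads that could be placed, and its level is a lower limit.

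Hmgb3 (ENSMUSG00000015217, X:71555918-71560676, plus strand) encodes the HMGB protein of embryos and of blood stem cells. Its WT libraries stood at 7.57, 10.2 and 8.11 CPM, its Alb/MDA-9 libraries at 9.78, 10.2 and 10.9 CPM. WT 2 lay within the Alb/MDA-9 range and the other WT libraries below it. The log2 change was 0.25 (SE 0.15). Both Hmgb2 and Hmgb3 carry the printed promoter matches, and their genotype values differ.

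**Figure D3:**
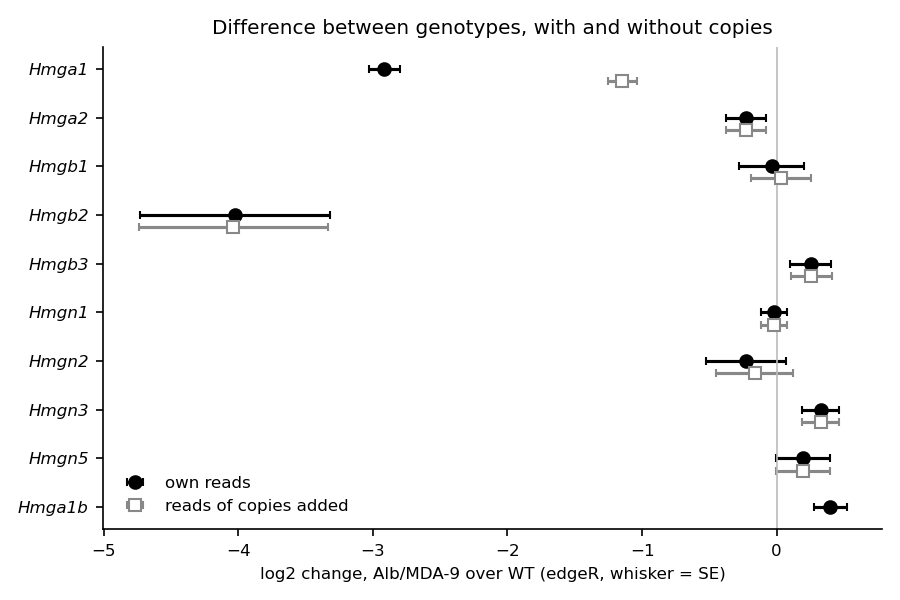
Log2 change of each HMG gene and of Hmga1b, Alb/MDA-9 over WT, from edgeR with SE as whiskers. Filled circles use the gene's own reads and open squares add the reads of its near-identical copies; only Hmga1 moves by more than its SE, from -2.91 to -1.15.

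The nucleosome-binding HMGN genes differed little between genotypes. Hmgn1 (ENSMUSG00000040681, 16:96120618-96127729, minus strand), which encodes a binder of the nucleosome core that loosens chromatin, had WT levels of 69.5, 66.8 and 66.2 CPM and Alb/MDA-9 levels of 66.4, 57.1 and 76.3 CPM. The WT libraries lay inside the Alb/MDA-9 range, and the log2 change was -0.02 (SE 0.10). It became 0.078 without Alb/MDA-9 2 and 0.0019 without WT 1. Hmgn2 (ENSMUSG00000003038, 4:133964738-133968650, minus strand), its close paralogue, gave 37, 38 and 33 WT reads and 26, 36 and 23 Alb/MDA-9 reads. Its log2 change was -0.23 (SE 0.30), and Alb/MDA-9 2 was the highest of all 6 libraries at 2.10 CPM.

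Hmgn3 (ENSMUSG00000066456, 9:83109948-83146685, minus strand), a family member with more tissue-restricted expression, was the only HMG gene whose Alb/MDA-9 libraries all lay above WT. The levels were 7.88, 8.56 and 9.05 CPM against 9.89, 10.7 and 11.4 CPM. The gap between the nearest libraries was smaller than the range within either group. Means were 8.50 ± 0.591 and 10.7 ± 0.775 CPM (SD, n = 3), 1.25-fold higher, with a log2 change of 0.33 (SE 0.14).

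Hmgn5 (ENSMUSG00000031245, X:109004534-109013404, minus strand) encodes the longest HMGN protein, with an acidic tail that binds linker histone H1. WT 1 to 3 stood at 9.85, 17.5 and 20.1 CPM, against 16.7, 18.3 and 19.1 CPM for Alb/MDA-9. WT 1 was low, WT 2 lay among the Alb/MDA-9 values and WT 3 just above them. The log2 change of 0.20 (SE 0.20) turned to -0.057 without WT 1.

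Copies of the HMGN genes held few reads. Since the counts hold only reads placed at a single site, this does not show how many reads the HMGN genes lost to copies. Hmgn2 had 12 near-identical copies with at most 2 reads per library, Hmgn1 had 4 with at most 5 reads, Hmgn5 had 1 with no read, and Hmgn3 had none. Only 58.8% of the 50-base words of Hmgn2 were unique, against 93.6% for Hmgn1, 87.8% for Hmgn3 and 81.4% for Hmgn5. All shared words of Hmgn3 were held by 1 gene, Gm29054, which was not among the copies. For Hmgb3 the unique share was 71.7%, and its 1 copy, Gm6104, had at most 4 reads.

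Levels of different genes were set side by side as CPM per kilobase of exon. These are levels of the reads that could be placed. The share of unique 50-base words runs from 45.0% (Hmga1) to 95.1% (Hmga2), so the order below is one of counted reads and may not be that of the RNAs. That share is only a rough guide to reads that could not be placed. It also counts a word as shared where another annotated gene covers the same bases on either strand. Hmga1 had the highest such value in WT at 32.8 ± 3.74 (SD, n = 3). Hmgn1 followed at 20.96 ± 0.552, then Hmgn5 at 8.18 ± 2.75, Hmgn3 at 4.55 ± 0.316, Hmgb3 at 3.86 ± 0.622 and Hmga2 at 2.49 ± 0.276. Hmgb1 at 1.001 ± 0.0933, Hmgn2 at 0.628 ± 0.0155 and Hmgb2 at 0.560 ± 0.0642 closed the order. Neighbours in this order overlapped between libraries for Hmgn3 with Hmgb3 and for Hmgn2 with Hmgb2.

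In Alb/MDA-9 the level per kilobase of Hmgn1 was highest, at 20.7 ± 2.99 (SD, n = 3). Hmgn5 came next at 9.34 ± 0.649, followed by Hmgn3 at 5.70 ± 0.415 and Hmgb3 at 4.61 ± 0.253. Hmga1 followed at 4.36 ± 0.576, overlapping Hmgb3, and Hmga2 stood at 2.13 ± 0.415. Hmgb1 at 0.975 ± 0.329 and Hmgn2 at 0.536 ± 0.130 overlapped each other, and Hmgb2 was last at 0.0334 ± 0.0579. Apart from Hmga1, the genes kept the same order in both genotypes.

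Hmga1 made up 31.7% to 38.7% of the reads of all 9 genes in WT libraries and 6.64% to 6.97% in Alb/MDA-9. The 9 genes summed to 192 to 199 CPM per WT library and 122 to 154 CPM per Alb/MDA-9 library, without overlap. Without Hmga1 the sums were 120 to 131 CPM and 114 to 144 CPM, and the WT range lay within that of Alb/MDA-9.

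Reads on the strand opposite to the 9 genes, summed, numbered 53, 53 and 31 over the WT libraries and 38, 56 and 39 over Alb/MDA-9 1 to 3, and the groups overlapped. As a share of both strands they were 1.34%, 1.35% and 0.947% for WT, against 1.57%, 2.60% and 1.5% for Alb/MDA-9 1 to 3. This share divides by sense reads of the 9 genes, which chose the set and were fewer in Alb/MDA-9, so it is given as a description with no test. The mean shares differed by 0.679 percentage points, and by 0.322 without Alb/MDA-9 2. Over all genes the annotated strand held 97.15%, 97.17% and 97.15% of stranded reads in WT. It held 97.05%, 96.91% and 96.94% in Alb/MDA-9 1 to 3, so the opposite-strand share of all genes was also higher there. The part of this library-wide difference in the shares of the 9 genes was not tested.

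For Hmga1 the opposite-strand reads were similar, with 21, 26 and 10 for WT, then 11, 20 and 10 for Alb/MDA-9, and the groups overlapped. Their mean share was 1.38% (WT) and 8.07% (Alb/MDA-9), over a much smaller sense count in Alb/MDA-9. AI413582, on the minus strand, overlaps the 3′ end of Hmga1, and reads of overlapping genes fall in this column too. AI413582 itself had a log2 change of -0.22 (SE 0.13; adjusted p = 0.292 in edgeR).

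Tested neighbours did not share the large differences of Hmga1 and Hmgb2. The nearest tested protein-coding gene on each side of the 9 genes gave 18 neighbours, with log2 changes from -0.41 to 0.48 and a median of 0.06. They lay 0 to 352028 bases away, since genes in between that were untested or not protein-coding were skipped. Of these, 5 were higher in Alb/MDA-9 (27.8%, against 7.35% of all tested genes) and 0 were lower (edgeR adjusted p under 0.05). Lemd2, a gene of a nuclear membrane protein 352028 bases from Hmga1, had a log2 change of 0.03 (SE 0.08; adjusted p = 0.833 in edgeR). Beside Hmgb2, Sap30, a subunit of the SIN3 histone deacetylase complex, had -0.14 (SE 0.17, adjusted p = 0.640) and Galnt7, a glycosyltransferase gene, had -0.41 (SE 0.13, adjusted p = 0.0592). Galnt7 gave the lowest log2 change among the 18, with groups that did not overlap.

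The 5 neighbours that passed were Cd99l2 (by log2 0.48 with SE 0.07; adjusted p = 0.000969 in edgeR) beside Hmgb3, Dhdds (0.43, SE 0.09, adjusted p = 0.00855) beside Hmgn2, Msrb3 (0.29, SE 0.07, adjusted p = 0.0165) beside Hmga2, and Brwd3 (0.33, SE 0.08, adjusted p = 0.0177) and Sh3bgrl (0.29, SE 0.08, adjusted p = 0.0283) on either side of Hmgn5. Dhdds lay 378 bases from its HMG gene, and the others 63069 (Cd99l2) to 304627 bases (Msrb3) from theirs. The HMG genes paired with these neighbours had overlapping libraries.

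The genes whose pattern over the 6 libraries lay nearest to each HMG gene were found by root mean square distance of centred log2(CPM + 0.5) over 13295 other genes. For Hmga1 these were Gbp11, a guanylate-binding protein gene, at 0.163, Gm8420 at 0.180 and Thegl at 0.220. Mean levels, WT first, were 3.77 and 0.114 CPM for Gbp11 and 3.66 and 0.0579 CPM for Gm8420. Thegl averaged 2.39 CPM in WT and had no reads in Alb/MDA-9. These genes fell more steeply than Hmga1, whose means were 69.8 and 9.27 CPM. The added 0.5 CPM shrinks log2 differences at low levels, so a small distance does not mean an equal fold change. For Hmgb2 they were Clspn, which encodes the replication checkpoint protein claspin, at 0.129, Gm5828 at 0.130 and Cd207, a dendritic cell lectin gene, at 0.148. Clspn averaged 8.55 CPM (WT) and 1.85 CPM (Alb/MDA-9). Hmgn3 lay nearest to Foxo4, Setd1b and Mta3, at 0.0249 to 0.0271, genes that averaged 14.2, 27.5 and 29.9 CPM (WT) and 17.6, 34.9 and 37.4 CPM (Alb/MDA-9).

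The other 6 HMG genes, whose groups overlapped, were compared in the same way. Hmga2 lay nearest to Gm38393, Bora and 1700056N10Rik, Hmgb1 to F830016B08Rik, E230013L22Rik and Gm9522, and Hmgb3 to Cenpl, Mfap1a and Dvl3. Hmgn1 lay nearest to Brat1, Pam and Fundc1, Hmgn2 to Prex1, Soat2 and Erc2, and Hmgn5 to Btbd11, Tcea1-ps1 and Anp32b. These distances describe 6 libraries and say nothing of shared control.

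Genes of the cell cycle moved with Hmgb2 and Hmga1. Of 26 tested proliferation genes, 22 were lower in Alb/MDA-9 (84.6%, against 7.09% of all genes) and 0 higher (edgeR adjusted p under 0.05; 0 higher also at an unadjusted p under 0.05 and by DESeq2), with a median log2 change of -1.31. The list summed to 661 to 711 CPM per WT library and 412 to 463 CPM per Alb/MDA-9 library. Mki67, the Ki-67 gene, stood at 20.1, 21.2 and 20.9 CPM over the WT libraries and 1.88, 1.86 and 5.84 CPM over the others. As with Hmgb2, Alb/MDA-9 3 was the highest of its group. This order did not hold for every listed gene, since Alb/MDA-9 3 was the lowest of its group for Rrm2, Birc5 and Ccnb2. Ccna2, encoding cyclin A2, had 11.9, 9.18 and 8.99 CPM against 2.15, 1.46 and 2.53 CPM, and Cdk1, encoding the mitotic kinase, 13.6, 12.6 and 9.88 CPM against 3.04, 3.67 and 4.46 CPM. Ccnd1, encoding cyclin D1, had 15.3, 14.3 and 12.6 CPM against 2.49, 3.03 and 5.12 CPM. In these bulk cultures fewer cells of a type and less RNA per cell cannot be told apart.

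**Figure D4:**
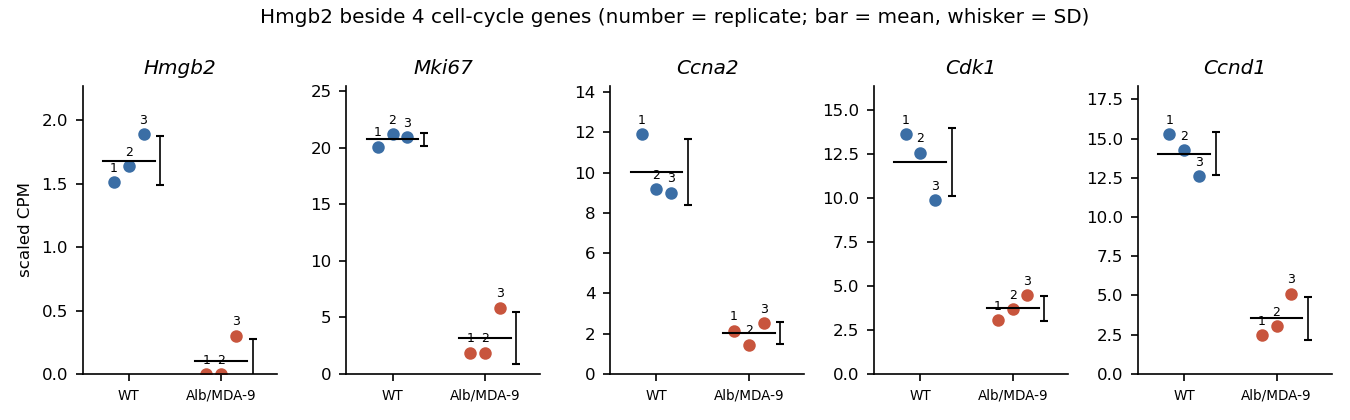
Scaled CPM of Hmgb2 and of the cell-cycle genes Mki67, Ccna2, Cdk1 and Ccnd1 in each library (numbers are replicates, bars are means, whiskers are SD, n = 3, drawn no lower than 0). Alb/MDA-9 3 is the highest Alb/MDA-9 library in all 5 panels, and every panel shows WT above Alb/MDA-9.

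Markers of other liver cells also moved with genotype. Of 12 Kupffer cell markers 8 were lower in Alb/MDA-9, as were 4 of 10 endothelial and 5 of 10 stellate cell markers, and 0 of these were higher (7.09% of all tested genes were lower; edgeR adjusted p under 0.05; 0 higher also at an unadjusted p under 0.05 and by DESeq2). Summed levels, WT first, were 412 to 428 CPM and 239 to 395 CPM for Kupffer cells, 259 to 280 and 199 to 216 CPM for endothelial cells, and 304 to 322 and 205 to 267 CPM for stellate cells. None of the 3 lists overlapped between genotypes in its sum. Much of the Kupffer sum was Cd68, at 262, 267 and 284 CPM (WT) and 322, 284 and 137 CPM (Alb/MDA-9; adjusted p = 0.743 in edgeR). Much of the stellate sum was Reln, at 143, 148 and 156 CPM (WT) and 168, 146 and 101 CPM (Alb/MDA-9; adjusted p = 0.661 in edgeR). The counts rested partly on single libraries, with 5 Kupffer markers lower without WT 2. The stellate count was 2 without WT 1 or WT 3 and 3 without WT 2 or Alb/MDA-9 2. Of 5 tested cholangiocyte markers 3 were higher and 1 lower (7.35% and 7.09% of all tested genes), with sums of 52.8 to 60.9 CPM (WT) and 251 to 360 CPM (Alb/MDA-9), led by Spp1 at 0.967 ± 0.343 and 215 ± 56.6 CPM (SD, n = 3).

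Hepatocyte markers summed to 80149 to 83660 CPM (WT) and 83954 to 99372 CPM (Alb/MDA-9), with 2 of 10 higher (7.35% of all tested genes were). Most of this sum was Alb alone, at 54048 to 58379 CPM (WT) and 55090 to 70170 CPM (Alb/MDA-9). Alb overlapped between genotypes and did not pass (adjusted p = 0.355 in edgeR). Of the 10 hepatocyte markers 0 passed as lower, and DESeq2 also called 0 lower. At an unadjusted p under 0.05 in edgeR 1 was lower, Cyp2e1, named here after its values were seen. It stood at 464, 471 and 471 CPM (WT) and 415, 360 and 215 CPM (Alb/MDA-9; adjusted p = 0.0681 in edgeR). No lymphocyte marker had enough reads to be tested, and Cd3g, Ms4a1 and Nkg7 were at 0 reads in all libraries. Of 3 tested neutrophil markers 1 was lower (7.09% of all tested genes were), with Ly6g at 0 reads. None of 4 tested Y-linked genes passed the test in either direction (at an unadjusted p under 0.05, 1 was lower, and DESeq2 called 1 lower), and Xist had 0 reads in all libraries. The part of these cell types and of proliferating cells in the Hmga1 and Hmgb2 values was not tested.

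The wider HMG-box family, transcription factors and remodelling subunits that share the DNA-binding domain of HMGB proteins, had 29 tested members of 35 listed. Of these, 6 were higher in Alb/MDA-9 (20.7%, against 7.35% of all genes) and 0 were lower (edgeR adjusted p under 0.05; 3 lower at an unadjusted p under 0.05 and 1 by DESeq2), with a median log2 change of 0.05. With library totals alone, 3 were higher and 3 lower. Sox9, a biliary and progenitor transcription factor that is also among the cholangiocyte markers, rose from 33.4 ± 4.15 to 57.9 ± 1.15 CPM (n = 3, ± SD; by log2 0.79 with SE 0.09; adjusted p = 0.000132 in edgeR). Tox2 rose from 1.41 ± 0.255 to 4.52 ± 0.368 CPM (by log2 1.67 with SE 0.24; adjusted p = 0.000717 in edgeR). Smarce1, a SWI/SNF remodelling subunit, rose from 12.0 ± 3.07 to 22.2 ± 3.81 CPM (by log2 0.89 with SE 0.18; adjusted p = 0.00577 in edgeR).

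Sox4, another SOX factor, rose from 60.1 ± 8.60 to 80.3 ± 6.21 CPM (by log2 0.42 with SE 0.10; adjusted p = 0.0150 in edgeR). Over its alternatives the adjusted p of Sox4 ran from 8.15e-05 to 0.0850, and the call was lost without WT 1 (0.0646) or WT 2 (0.0850). The other 2 that rose were Hmg20b and Cic, named here after their values were seen, with log2 changes of 0.35 (SE 0.09) and 0.24 (SE 0.07). Without WT 1 or without WT 2 the list had 3 higher members in place of 6. Hmgb4, the remaining HMGB gene, and Tox3 had 0 reads in all libraries.

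Partners of HMG proteins at the nucleosome, namely linker histones, histone variants, HP1 proteins, histone chaperones and the SET complex, had 23 tested members of 31. Of these, 1 passed as higher and 2 as lower, and the median log2 change was 0.02. These 13.0% are close to the 14.4% of all tested genes, so the list as a whole gives no result and its called genes are described singly. H1f0, the replacement linker histone H1.0 of resting cells, rose from 46.9 ± 7.92 to 75.4 ± 5.52 CPM (n = 3, ± SD; by log2 0.69 with SE 0.11; adjusted p = 0.00144 in edgeR). Cbx5, encoding HP1-alpha, fell from 89.8 ± 2.13 to 76.3 ± 3.20 CPM (by log2 -0.23 with SE 0.07; adjusted p = 0.0390 in edgeR). Parp1, encoding a DNA-damage sensor, fell from 56.9 ± 3.22 to 47.3 ± 3.35 CPM (by log2 -0.27 with SE 0.08; adjusted p = 0.0430 in edgeR).

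The calls of Cbx5 and Parp1 were lost on leaving out any library other than Alb/MDA-9 3, with adjusted p up to 0.162 and 0.199 without WT 2. Over all alternatives the adjusted p started at 0.00789 for Cbx5 and 0.00938 for Parp1. Of the replication-coupled linker histone genes, Hist1h1a and Hist1h1b had 0 reads in all libraries. Hist1h1t and Trex1 also had 0 reads in all libraries. The listed linker histone gene Hist1h1c, named here after its values were seen, was counted at 12.1 CPM (WT) and 14.9 CPM (Alb/MDA-9). It did not pass (adjusted p = 0.178 in edgeR), and Hist1h1d and Hist1h1e had too few reads to be tested.

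Genes of extracellular HMGB1 signalling, its receptors, adaptors, scavengers and release factors, had 18 tested members of 25, with 3 higher, 2 lower (7.35% and 7.09% of all tested genes) and a median log2 change of -0.12. The balance turned with scaling, to 1 higher and 7 lower by library totals alone and 1 higher and 3 lower by upper-quartile factors. Hp, encoding haptoglobin, which binds HMGB1, rose from 2649 ± 248 to 4525 ± 424 CPM (n = 3, ± SD; by log2 0.77 with SE 0.10; adjusted p = 0.000214 in edgeR). Cd163, the macrophage scavenger receptor for haptoglobin complexes, fell from 23.5 ± 0.878 to 12.1 ± 0.557 CPM (by log2 -0.95 with SE 0.10; adjusted p = 7.82e-05 in edgeR). Cxcl12, a chemokine that forms a complex with HMGB1, fell from 27.99 ± 1.25 to 14.5 ± 2.47 CPM (by log2 -0.95 with SE 0.12; adjusted p = 0.000283 in edgeR). Kupffer cell markers, listed above, were lower alongside Cd163, and their part in it was not tested.

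Myd88, the adaptor of Toll-like receptors, rose from 28.1 ± 2.48 to 36.0 ± 3.78 CPM (n = 3, ± SD; by log2 0.36 with SE 0.10; adjusted p = 0.0313 in edgeR). Its adjusted p ran from 0.00946 to 0.125 over the alternatives, and the call was lost without WT 1 (0.125), WT 2 (0.119), Alb/MDA-9 2 (0.0568) or Alb/MDA-9 3 (0.0652). Tlr2, an HMGB1 receptor named after its values were seen, rose from 7.37 ± 0.815 to 10.4 ± 1.17 CPM (by log2 0.50 with SE 0.15; adjusted p = 0.0453 in edgeR). The list had 1 higher member without WT 1, WT 2, Alb/MDA-9 2 or Alb/MDA-9 3, and 4 lower members without Alb/MDA-9 1. Ager, which encodes the receptor RAGE, had too few reads to be tested, as did Tlr9, Siglecg, Havcr2, Trem1, Nlrp3 and Il1b.

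Oncofetal genes linked to HMGA proteins, such as those of the LIN28 and IGF2BP families, had 6 tested members of 16. Of these, 2 were lower (7.09% of all tested genes were) and 0 higher in Alb/MDA-9 (0 higher also at an unadjusted p under 0.05 and by DESeq2), with a median log2 change of -0.43. Afp, encoding the fetal serum protein alpha-fetoprotein, fell from 13.0 ± 0.988 to 6.18 ± 0.878 CPM (n = 3, ± SD; by log2 -1.08 with SE 0.15; adjusted p = 0.000507 in edgeR). Igf2bp2, an RNA-binding protein gene known as an HMGA2 target, fell from 12.0 ± 0.0806 to 7.66 ± 0.596 CPM (by log2 -0.65 with SE 0.13; adjusted p = 0.00597 in edgeR). The libraries of the 2 genotypes did not overlap for either gene.

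Insr, the insulin receptor gene, a known HMGA1 target and named here after its values were seen, stood at 143 ± 1.72 CPM (WT) and 124 ± 12.0 CPM (Alb/MDA-9; n = 3, ± SD; by log2 -0.21 with SE 0.08; adjusted p = 0.108 in edgeR) and did not pass. Lin28a, Igf2 and H19 had 0 reads in all libraries, where 3 reads would be 0.158 to 0.183 CPM.

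**Figure D5:**
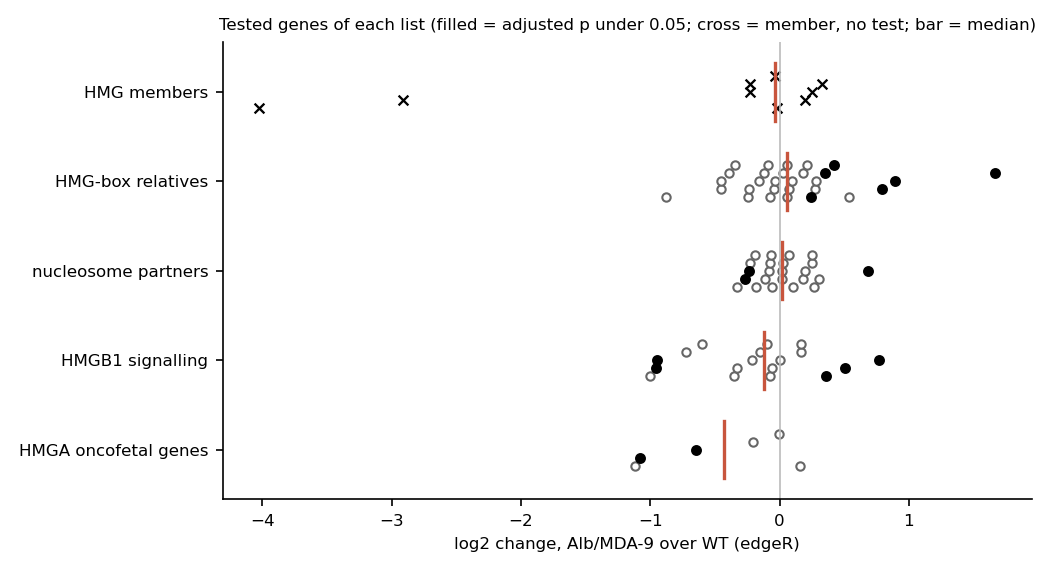
Log2 change, Alb/MDA-9 over WT, of the HMG genes (crosses, no test) and of the tested genes of 4 related lists (filled circles passed an edgeR adjusted p of 0.05, open circles did not), with red bars at the list medians. Hmgb2 and Hmga1 lie furthest left at -4.02 and -2.91, and no related gene lies below -2.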

How the data were processed

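RNA-seq of 3 WT and 3 Alb/MDA-9 libraries was used. The deposited tables hold raw read counts per gene made by the authors, which STAR gives for reads of either strand and of each strand. The submitters' processing notes name STAR 2.7.9a, FastQC 0.11.2, edgeR 3.18.1 and Trim Galore 0.6.6, with the builds mm10 and GRCm38; the sources used here give neither annotation nor options. The reverse-strand column, with 96.9% to 97.2% of stranded reads, was used, without the 4 leading summary rows. GENCODE M21 held 55227 of 55487 identifiers. Genes were filtered (filterByExpr, minimum count 10), TMM-scaled and tested between all 6 libraries without covariates by edgeR 4.0.16 (R 4.3.3; quasi-likelihood F test, Benjamini-Hochberg at 0.05); the script was tested on simulated data. Copies were found with blastn 2.17.0.

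The members, lists, markers and tests were chosen with earlier results of these data known. Named genes were the 9 members, up to 4 called genes of smallest p in each other list with up to 2 called genes of the rarer direction, the 3 nearest patterns and 2 neighbours per member, and copies with at least 10 reads in at least 3 libraries. Alternatives were upper-quartile factors, library totals alone, no filter, a minimum count of 50, unstranded counts, copies added, a replicate block, each library left out and DESeq2 1.42.0. The first principal component (55.5% of variance) parted the genotypes and the second (17.0%) set Alb/MDA-9 3 apart. Promoter windows came from RefSeq (GRCm38.p6) and transcripts from GENCODE M21; protein sequence was not used here. A planned exact test of opposite-strand shares is not given, since their denominator holds the counts that chose the members. Some marker results are not reported here.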

Additional observations from a re-analysis of the deposited data

Results flagged for a closer look

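Reads on the strand opposite to Hmgn3, which the stranded counts leave out and only the unstranded alternative takes in, were above the WT level in Alb/MDA-9. WT 1 to 3 had 2, 5 and 2 such reads, whereas each Alb/MDA-9 library had 8, a mean of 0.159 ± 0.0851 CPM and 0.463 ± 0.0200 CPM (SD, n = 3). No test is given, since a share of both strands divides by the Hmgn3 reads that chose the gene. The counts are within a few reads of the 3-read floor in WT. Of the 1684 50-base words of Hmgn3, 206 also occurred, on either strand, in transcripts of Gm29054. At 100 bases, 156 of 1825 words were still shared with it. Gm29054 was not among the near-identical copies, which were sought on the same strand only. Where Gm29054 lies was not looked at, and its part in these reads was not tested. Reads of a gene overlapping Hmgn3 on the other strand would be counted here too.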

How the results depend on the processing

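As a description of genes chosen on this contrast, the log2 change ran from -3.02 to -1.15 for Hmga1 (the latter with its copy added) and for Hmgb2 from -7.95 (without Alb/MDA-9 3, no bound) to -3.44. With a minimum count of 50, 7 members were tested (not Hmgb2 or Hmgn2) and 1 was past the threshold as lower. The sign turned for Hmgb1 (0.030 with copies added; -0.30 to 0.18 on leaving out 1 library, 0.040 without WT 3), Hmgn1 (-0.13 to 0.078, 0.0019 without WT 1) and Hmgn5 (-0.057 without WT 1 to 0.40). The other 118 of 124 alternative values of the members kept their direction and side, as did 382 of 416 for other named genes, whose other 34 lost the call.

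With library totals alone the median log2 change of all genes moved to -0.11, and calls were 525 higher and 1622 lower, HMG-box relatives 3 higher and 3 lower, HMGB1 signalling 1 higher and 7 lower, and oncofetal genes 4 lower. Upper-quartile factors gave 1 HMG-box relative lower and 1 HMGB1 signalling gene higher. No filter gave 2 HMG-box relatives lower, 3 nucleosome partners higher and 4 HMGB1 signalling genes lower. The minimum count of 50 and DESeq2 each gave 1 HMG-box relative lower, and unstranded counts gave 2 nucleosome partners higher. The cause of these shifts was not tested.

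Leaving out 1 library at a time gave 503 to 1178 genes higher and 515 to 1208 lower. It gave 3 to 8 HMG-box relatives higher and 0 to 2 lower, 0 to 2 nucleosome partners lower, and 1 to 3 HMGB1 signalling genes higher and 2 to 4 lower.

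Same-numbered libraries did not deviate together (correlations of -0.0619 to -8.73e-05 over 3 pairs), so the numbers were not taken as pairs. A replicate block gave 775 genes higher and 826 lower and left 0 nucleosome partners and 3 stellate markers lower. Depth limits Hmgb2, Hmgn2 and the opposite-strand reads most.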
